A study of Mus musculus with 2 samples.

Results

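RIKEN cDNA clones whose names begin with 5830, A630 or E430 were followed in mammary gland RNA of control mice and of miR-34a knockout mice. These clone codes stand for cDNA libraries made from adult or neonate thymus. The clones were taken by the code in their probe names, though this set was chosen with earlier results of these data known. Of the 15675 RIKEN clones on the array, 640 carried one of the codes. They were read by 956 spots per array. Code 5830 gave 154 clones, A630 gave 390 and E430 gave 96. The code names the library in which a cDNA was first found and does not limit its RNA to that tissue. That reading of the codes comes from the naming of the RIKEN collection and could not be checked against the array files.

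The RIKEN collection was an effort to sequence full-length mouse cDNAs from many tissues, and a clone name gives the library and the well from which the cDNA was picked. Many of these cDNAs match no protein-coding gene and are counted as long non-coding RNAs (lncRNAs), while others are partial, unspliced or alternative copies of coding transcripts. The thymus is the organ in which T cells mature, so its libraries hold transcripts of developing T cells and thymic epithelium as well as genes that nearly every cell uses. The mammary gland holds ducts of luminal and basal epithelium in a bed of fat, stroma, vessels and blood-derived cells.

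Total RNA was taken from mammary glands of female mice and measured on 2 one-colour Agilent arrays labelled with Cy3, 1 array per genotype. The control had miR-34a alleles flanked by loxP sites (miR-34a fl/fl). The knockout (miR-34a -/-) came from crossing floxed mice with mice that express Cre recombinase in the mammary gland. Both groups thus go back to floxed mice, but the allele is recombined where Cre acted. Cre is named for the knockout alone, so an effect of Cre cannot be told apart from that of the deletion. The strain background, the age, the promoter of the Cre transgene and the number of mice behind each array are not given in the sources used here. A tissue-restricted Cre leaves the allele intact in cells that do not express it. Neither genotype was replicated, so no test was made, and each difference below describes these 2 arrays.

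The microRNA deleted in the knockout is shown here because its seed, the stretch that pairs with target RNAs, defines the perturbation. Its main strand in RefSeq lies at chr4:150068473-150068494 on the plus strand of GRCm38.p6, and capitals mark the seed, bases 2 to 8.
mmu-miR-34a-5p: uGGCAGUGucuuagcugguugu
The files hold no sequence for the clone probes, so no clone could be searched for matches to this seed. The deletion itself was not checked on these arrays.

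Of the 175906 spots that are no controls, the control array had 77.3% well above background and the knockout array 75.4%. Levels are log2 signals after subtraction of each array's own 75th percentile, and differences are knockout minus control on that scale. Levels of different probes rank probe signals and do not measure amounts of RNA. Names for the cell markers of the gland, including those of T cells, could not be set against probes of the mRNA class, so neither tissue makeup nor the share of T cells was analysed here. In RNA from whole tissue, fewer cells of a type and less RNA per cell cannot be told apart.

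The first question was how many of these clones could be seen in the mammary gland. A clone counted as seen on an array when every usable spot was well above background, and 637 of the 640 clones had a usable spot on both arrays. Of the 637, 539 (84.6%) were seen in the control and 511 (80.2%) in the knockout. Among the 14981 other usable RIKEN clones the shares were 77.0% and 74.7%. Both arrays saw 503 of the thymus-code clones (79.0%) and 10844 of the other RIKEN clones (72.4%). A further 73 thymus-code clones (11.5%) were seen on neither array, against 19.3% of the others. Another 27 were well above background on the control array only and 6 on that of the knockout only. The remaining 28 had spots that disagreed in the call, and all 28 were A630 clones with 2 spots.

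The 3 codes differed in how often they were seen. Of E430 clones 84 of 95 (88.4%) were seen on both arrays, of 5830 clones 124 of 153 (81.0%) and of A630 clones 295 of 389 (75.8%). Part of this order goes with the number of spots, because all clones of 5830 and E430 had 1 spot while 316 of the A630 clones had 2, and a clone with 2 spots needs both. Among clones with 1 spot, 267 of 322 thymus-code clones (82.9%) and 7569 of 10339 other RIKEN clones (73.2%) were seen on both arrays. The A630 clones with 1 spot stood at 79.7%. The thymus-code clones seen on both arrays were also somewhat brighter, with a median level of -1.07 in the control against -1.29 for the other RIKEN clones. No spot of these clones was saturated, and an outlier mark was carried by 6 of their spots in the control and 2 in the knockout.

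**Figure D1:**
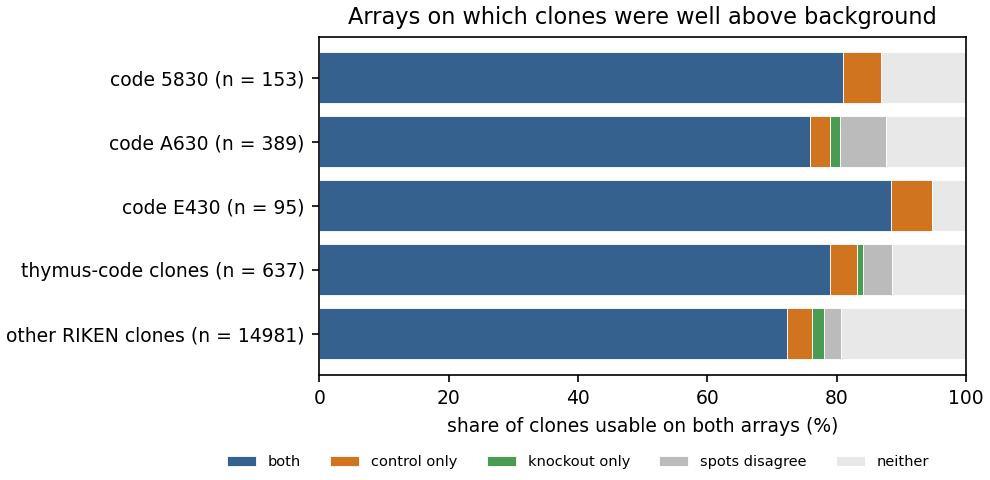
Stacked bars give the share of clones usable on both arrays (x axis, %) that were well above background on both arrays, on the control or the knockout array alone, on neither, or whose spots disagreed, by clone code and for all other RIKEN clones. The bar for E430 has the largest blue part, 88.4%, and grey bands for disagreeing spots stand in A630 and in the sets that include clones with 2 spots.

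The brightest clones were ranked among those seen on both arrays with usable spots. None of the 10 brightest was 2-fold apart between the arrays, and 7 of the 10 lay higher on the knockout array. So did 58.7% of all other probes and 53.5% of other RIKEN clones seen on both arrays. E430 supplied 4 of the 10, while A630 and 5830 supplied 3 each. The top clone by mean level was E430029I17, at 3.71 in the control and 3.98 in the knockout. E430021P04 stood at 3.80 and 3.74, and 5830435H10 at 3.27 and 3.79. The widest gap downward among the 10 was that of E430019C01, at 3.80 in the control and 3.13 in the knockout, a 1.59-fold difference. A630001K17 had the widest gap upward, at 2.64 and 3.47, which is 1.77-fold. A630001E07 stood at 2.96 and 3.41, 5830411K21 at 3.11 and 3.40, 5830408D10 at 2.79 and 3.35, and E430022E24 at 3.28 and 3.17. All of these 9 clones had 1 spot per array, so the spread between spots is unknown for them. The tenth, A630058G24, had 2 spots per array. Its processed signals were 2958 and 2754 in the control and 2222 and 2160 in the knockout. After scaling it stood at 3.11 ± 0.07 and 3.18 ± 0.03 (SD over 2 spots). No gene could be named for any of the 10. A630045I04 stood outside this rank because both its control spots carried an outlier mark. Its signals, looked up after the ranking, were higher than those of E430029I17, at 8951 and 7505 in the control and 5450 and 5008 in the knockout.

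The sign of these small gaps depends on the scaling. E430029I17 and A630058G24 turned below 0 with quantile scaling, at -0.0024 and -0.13, with a loess curve, at -0.02 and -0.17, and when the added spike-in RNAs were set equal, at -0.09 and -0.29. 5830411K21 turned to -0.07 under equal spike-ins, and E430019C01 to -1.02, which is past 2-fold.

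The next comparison asked which clones differed between the genotypes. Of the 503 thymus-code clones seen on both arrays, 15 (2.98%) stood 2-fold or more higher in the knockout and 23 (4.57%) 2-fold or more lower. The share over all probes was 4.45% higher and 4.54% lower, and over the 10844 other RIKEN clones 4.28% and 4.66%. The lower count of the thymus-code clones thus lay at the background share, and the higher count somewhat under it. Their median difference was 0.06, where 5% lay below -0.92 and 5% above 0.82. In all 368 (73.2%) lay within 1.5-fold, against 73.6% of the other RIKEN clones.

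**Figure D2:**
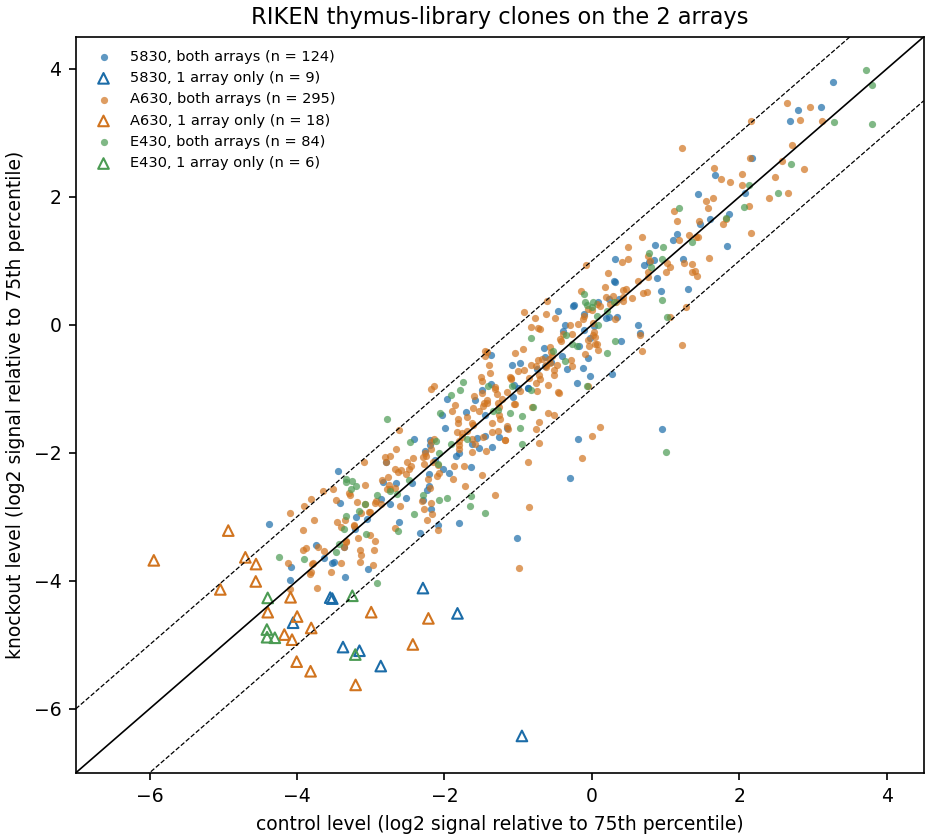
Each point is a clone, with its control level on the x axis and its knockout level on the y axis (log2, 75th percentile set to 0), coloured by clone code. The solid line marks equal levels and the dashed lines 2-fold; 368 of the 503 circles lie within 1.5-fold, and open triangles mark clones well above background on 1 array only.

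Set against other RIKEN clones of like signal, the difference was close to 0. The 10732 other clones within the same range of mean level were weighted so that each of 10 bins of level counted as it does among the thymus-code clones. Their weighted median was 0.04, and the thymus-code median lay 0.01 above it. The weighted shares were 4.28% higher and 4.60% lower. By code, the gap to clones of like signal was -0.04 for 5830, 0.05 for A630 and -0.02 for E430. The lower 5 bins held 9 of the higher and 14 of the lower clones, and the upper 5 bins 6 and 9.

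**Figure D3:**
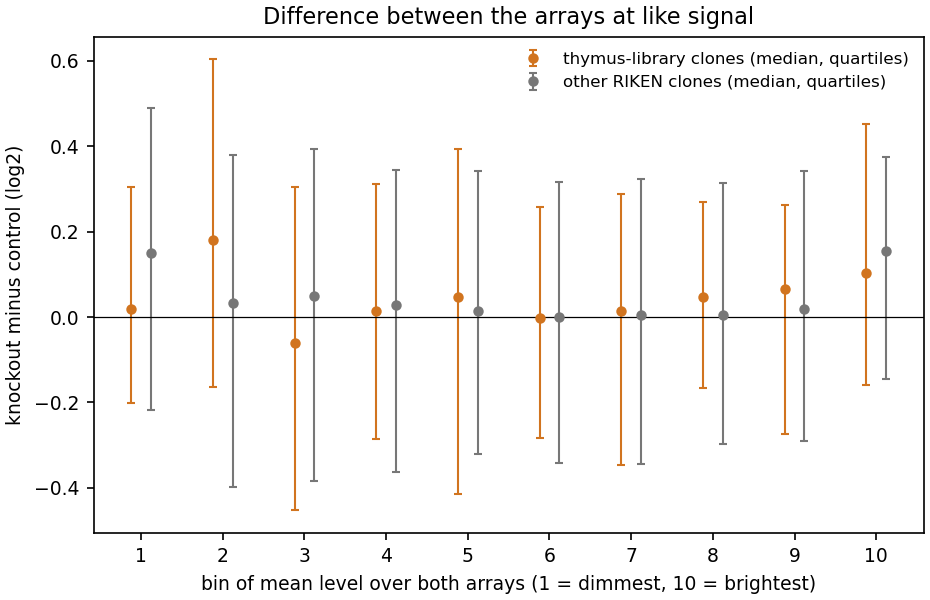
The x axis gives 10 bins of mean level over both arrays, cut at the deciles of the thymus-code clones, and the y axis the difference knockout minus control (log2), with medians as points and quartiles as bars. The medians of the thymus-code clones ranged from -0.06 in bin 3 to 0.18 in bin 2, and the bars of the 2 sets overlap in each bin.

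By code, the counts were small. In 5830 there were 2 clones at least 2-fold higher (1.61%) and 7 lower (5.65%) of 124, in E430 1 (1.19%) and 5 (5.95%) of 84, and in A630 12 (4.07%) and 11 (3.73%) of 295. Against 4.45% higher and 4.54% lower over all probes, the shares lower lay near the background in each code, and so did the share higher in A630. The median differences were 0.00, 0.03 and 0.09. Clones with 1 spot gave 5 higher (1.87%) and 16 lower (5.99%) of 267, and clones with 2 spots 10 (4.24%) and 7 (2.97%) of 236. Other RIKEN clones stood at 4.57% higher and 4.78% lower with 1 spot and at 3.60% and 4.37% with 2 spots, without such a gap. The A630 clones with 1 spot gave 2 and 4 of 59. The part of code and of spot number in these counts was not tested.

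The split between higher and lower followed the processing. With a loess curve it was 8 higher and 25 lower, where other RIKEN clones stood at 3.46% and 5.58%. With normexp background correction it was 1 (0.199%) and 11 (2.19%), where the others stood at 1.46% and 1.37%. Without any background correction it was 3 (0.596%) and 11 (2.19%), against 2.19% and 1.77% of the others. In these last settings the other RIKEN clones were closer to balance than the thymus-code clones. On the first spot of each probe it was 11 and 25, against 4.23% and 4.88% of the others, and among the 208 clones with both levels above the median of detected probes 3 and 3, against 2.89% and 2.77%. With the spike-ins set equal it was 1 and 53. Setting the spike-ins equal moved the median of all probes from 0.10 to -0.25, and the other RIKEN clones then stood at 1.82% higher and 11.1% lower.

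The clones most strongly lower in the knockout exceeded those higher in size. Other RIKEN clones had the same lean, with log2 differences from -5.23 to 3.70, so it is not particular to the thymus-code clones. The 8 largest differences downward ran from 3.31-fold to 7.98-fold, and each of the 8 stayed at least 2-fold lower in the 10 alternative settings that gave it a value. The other alternative, which needs both levels above the median of detected probes, leaves all 8 out. E430002O04 differed most, with a processed signal of 661 in the control and 60.7 in the knockout. Its levels were 1.0 and -1.99, a 7.98-fold difference. Only 1 spot per array read it.

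A630047H19 was the only one of these clones with 2 usable spots on both arrays. Its 2 spots gave signals of 159 and 175 in the control and of 15.7 and 19.4 in the knockout. The spots of the 2 arrays were far apart and did not overlap. The levels were -0.98 ± 0.10 and -3.80 ± 0.22 (SD over 2 spots), a 7.02-fold difference, and each pairing of a control spot with a knockout spot was past 2-fold. Its knockout level lay near the lowest level well above background on that array, -4.19, so the size depends on the background correction. The log2 difference was -1.25 with normexp and -1.59 without background correction.

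5830465B20 went from 638 in the control to 78.2 in the knockout, 5.99-fold lower. 5830456J23, with signals of 162 and 24.1, was 4.93-fold lower. 5830444C22, with 268 and 46.1, was 4.26-fold lower. These 5830 clones each had 1 spot, and none has a gene in the RefSeq gene table.

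A630031F24 was 3.96-fold lower. The signals of its 2 spots were 182 and 316 in the control, the latter carrying an outlier mark and left out, and 32.2 and 35.4 in the knockout. A630013H09, with 299 and 56.8, was 3.86-fold lower, and A630020O16, with 328 and 72.8, was 3.31-fold lower. With normexp, which shrinks differences of dim probes, the log2 differences of the 8 lay between -2.11 for E430002O04 and -1.0 for A630031F24.

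The other 15 lower clones lay between 2.05-fold and 3.28-fold. Among the lower clones 6 had 2 usable spots on both arrays, and 2 of these, A630047H19 and A630082M22, were past 2-fold in each pairing of spots. A630082M22, named after its values were seen, stood at 0.12 in the control and -1.60 in the knockout.

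In the other direction, A630038I09 had the largest difference. Its 2 spots gave signals of 824 and 711 in the control and of 1721 and 1557 in the knockout. The lower knockout spot lay well above the higher control spot. The levels were 1.22 ± 0.15 and 2.76 ± 0.10 (SD over 2 spots), a 2.92-fold difference. This clone was the single one of the 8 largest differences upward that stayed at least 2-fold higher in all 11 alternatives. Its log2 difference was 1.38 under normexp and 1.19 with equal spike-ins. The other 7 are left out by the filter on levels above the median. Of the 10 alternatives that gave them a value, they stayed past 2-fold in 6 to 8.

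The next 7 were dimmer and closer to the limit. E430019C06 was 2.48-fold higher, at -2.78 in the control and -1.46 in the knockout. 5830461D21 was 2.41-fold higher at a level near background, with signals of 15.9 and 28.1. A630051D19 was 2.27-fold higher, but its 2 knockout spots differed, at 90.2 and 161, against 73.1 and 71.8 in the control. Their SD was 0.59.

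A630064F15 was 2.25-fold higher with spots that lay close together, at 72.0 and 78.1 in the control and 123 and 124 in the knockout. A630043H04 was 2.24-fold higher, from 21.7 and 17.1 to 33.5 and 29.8. 5830444K01 was 2.23-fold higher, with signals of 30.2 and 49.5, and A630008N19 2.17-fold, with 175 and 278. Under normexp, and likewise with equal spike-ins, each of these 7 was under 2-fold. Among the higher clones, 10 had 2 spots on both arrays, and A630038I09 and A630064F15 were past 2-fold in each pairing of spots.

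**Figure D4:**
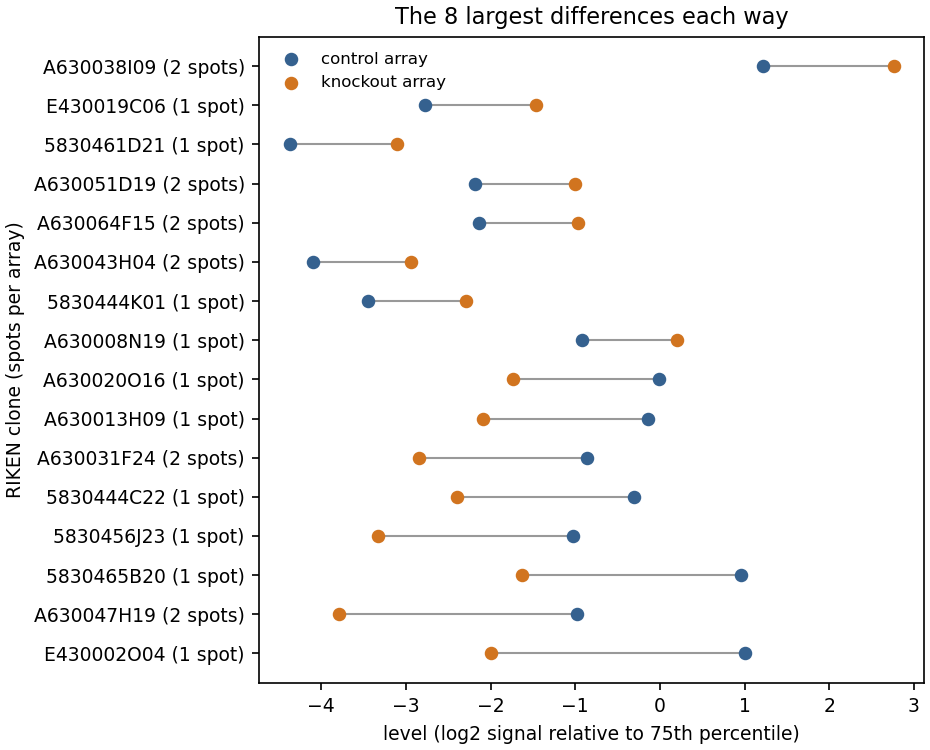
Levels (x axis, log2, 75th percentile set to 0) on the control array (blue) and the knockout array (orange) are joined for the 8 clones with the largest difference each way, with the number of spots per array after each name. The lower clones span up to 3.0 on the log2 scale, from 1.0 to -1.99 for E430002O04, while the widest gap upward is that of A630038I09, from 1.22 to 2.76.

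Some clones had every usable spot well above background on 1 array and no spot well above background on the other, and most of these were on the control side. Of the 637 usable clones, the control alone showed 27 (4.24%) and the knockout alone 6 (0.942%) by this rule. Clones with only some spots above background on an array were left out of both counts. The share over all probes was 2.52% for control only and 1.08% for knockout only, and over other RIKEN clones 3.82% and 1.92%. The control-only share of the thymus-code clones thus lay near that of other RIKEN clones and above that of all probes, and the knockout-only share lay near that of all probes and below that of other RIKEN clones. The 27 were made up of 9 of 153 clones of 5830 (5.88%), 12 of 389 of A630 (3.08%) and 6 of 95 of E430 (6.32%). All 6 on the knockout side were A630 clones (1.54%). Of the 27, 18 had 1 spot, and of the 6, 4. With 1 spot the shares were 5.59% control only and 1.24% knockout only, against 4.49% and 2.53% of other RIKEN clones. With 2 spots they were 2.86% and 0.635%, against 2.33% and 0.560%.

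Such a clone has only a bound: its level on the array that saw it, minus the higher of its own level on the other array and the lowest level well above background there, which was -4.52 in the control and -4.19 in the knockout. With the processing used here the bound is the measured difference or less in size, and "at least" below refers to that processing alone. The bound is no firm limit, because it was smaller with another background correction. The bound was at least 2-fold for 8 of the 27 control-only clones and for 1 of the 6 knockout-only clones. No share of other probes is given for bounds of that size, so these counts cannot be set against a background.

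The largest bound was that of 5830468D02, with a signal of 171 in the control and 2.82 in the knockout, at least 9.46-fold lower. It stayed past 2-fold in the 10 alternatives that gave it a value, and the filter on levels above the median leaves it out. 5830453J16 was at least 5.16-fold lower (93.1 and 10.6) and A630019G05 at least 3.93-fold lower (70.8 and 10.1). A630040F03 was at least 3.39-fold lower, with spots at 62.0 and 60.4 in the control and 10.8 and 5.32 in the knockout. With normexp the log2 bounds of 5830453J16, A630019G05 and A630040F03 were -0.74, -0.51 and -0.51, so they kept their direction at under 2-fold.

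On the knockout side A630095I08 stood alone past 2-fold, at least 2.47-fold higher. Its spots read 12 and 9.7 in the control and 28.1 and 24.1 in the knockout, so the spots of the arrays did not overlap. With normexp its log2 bound was 0.62 and with equal spike-ins 0.95. The next bounds were 1.85-fold for A630008O17, 1.79-fold for A630012N23, 1.72-fold for A630088B15 and 1.43-fold for A630015E17.

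Few of the clones could be tied to a gene. Through the clone name, 29 matched the RefSeq gene table of GRCm38.p6 and 6 more matched Ensembl names, which left 605 without a gene. Of these 35, 21 belong to protein-coding genes and 14 to other genes, 8 of them lncRNA genes in RefSeq. A probe made for a cDNA clone need not read the main transcript of the gene, and where loci overlap the reading may belong to either.

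Of the 21 protein-coding genes 17 were seen on both arrays, 10 above 0 and 7 below. None was at least 2-fold higher and 1 was at least 2-fold lower, where the shares of 4.45% and 4.54% over all probes amount to less than 1 gene each way. Their median difference was 0.20 and their range -1.28 to 0.88. The median over all thymus-code clones was 0.06.

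Genes tied to T cells and signalling come first. Ubash3a encodes a phosphatase-like protein that restrains T-cell receptor signalling, and it was the single clone whose own gene stood in the list of 48 T-cell and thymocyte genes. Its clone, 5830413C03, was seen in the control only, with a signal of 37.1 against 7.08 in the knockout. The bound was at least 2.05-fold lower, from 1 spot per array, and -0.20 on the log2 scale with normexp. The locus overlaps Rsph1. E130112N10Rik, a lncRNA gene that overlaps the T-cell costimulatory receptor gene Cd27 and Tapbpl, stood at -1.80 in the control and -2.01 in the knockout. It counted for the same list through Cd27, and no clone matched any of the other 12 lists, which covered thymic epithelium, other blood cells, the cell cycle, mammary epithelium, fat, skin, muscle, stroma, the ADAM family and miR-34a targets. 5830432E09Rik, a lncRNA gene overlapping the tyrosine phosphatase gene Ptpre, stood at -2.20 and -2.33.

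Edaradd encodes the adaptor of the ectodysplasin receptor, which acts in the development of hair, teeth and glands. Its clone, 5830469M23, was seen in the control only, with signals of 67.3 and 14.0. Its bound, 3.53-fold lower in the knockout, is the same as its measured difference. With normexp the log2 bound was -0.44. C2cd2 encodes a membrane-linked protein with a C2 domain, a fold that binds lipids in many proteins. Its clone, 5830404H04, was seen on both arrays with signals of 94.3 in the control and 28.4 in the knockout, 2.44-fold lower. With normexp its log2 difference was -0.38. Of the 3 protein-coding genes that stood apart, C2cd2 alone was seen on both arrays. Ubash3a and Edaradd were seen in the control only, so their direction followed from that rule. Over all probes 2.52% were seen in the control only, and over other RIKEN clones 3.82%. Each of the 3 genes was read by 1 spot and was under 2-fold with normexp.

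Other coding genes differed less. Akap13, an anchoring protein of kinase A, stood at 1.83 in the control and 1.23 in the knockout, 1.51-fold lower. Mindy3, a deubiquitinase, was at -0.03 and -0.80, 1.70-fold lower. Stau1, an RNA-binding protein that acts in RNA transport and decay, differed by -0.43, and Myg1 by -0.34.

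On the higher side, Tox4, a chromatin protein, had spots at 197 and 188 in the control and 261 and 258 in the knockout, 1.84-fold higher after scaling. Its locus overlaps Rab2b and Mettl3. The hydrolase Abhd11 stood at 1.65 and 2.46, 1.74-fold higher, with Abhd11os overlapping it. Arhgap31, a GTPase-activating protein for Cdc42 and Rac1, was 1.60-fold higher and Tmem245 1.43-fold. The cell-cycle kinase Cdk2, whose locus overlaps Pmel, differed by 0.21, the kinase Stk38 by 0.20 and the mitochondrial ribosomal protein Mrpl27 by 0.16. Foxk1, a forkhead transcription factor, was level, with spots at 2052 and 1895 in the control and 1427 and 1415 in the knockout, a scaled difference of -0.03. Amn1 was likewise level at -0.01. Equal spike-ins lower all differences alike, and the median of the coding genes, Cdk2, Stk38 and Mrpl27 then lay below 0. Fgd3 and Rmi2 were seen on neither array.

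Of the 14 other genes 7 were seen on both arrays, 1 in the control only and 6 on neither. A630031M04Rik was bright and 2.04-fold higher, with spots at 1537 and 1400 in the control and 2269 and 2116 in the knockout. Its level stood at 2.15 and 3.18. A630077J23Rik, a lncRNA gene, was 2.07-fold higher, with spots at 29.1 and 24.0 in the control and 39.9 and 40.2 in the knockout. Both A630031M04Rik and A630077J23Rik were under 2-fold with normexp and under equal spike-ins. A probe for the RefSeq transcript of A630077J23Rik did not show that difference: it stood at -1.14 in the control and -1.22 in the knockout, a difference of -0.07 with a spot SD of 0.73 on the knockout array. Mirt1 differed by -0.21 at its thymus-code clone and by 0.03 at the clone 5430437C04. For the coding gene Tmem245, the clone D730040F13 gave 1.01 where the thymus-code clone A630051L19 gave 0.52. Gm2093 was seen in the control only, at -4.40, which lies under the lowest level well above background in the knockout, so it has no bound.

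**Figure D5:**
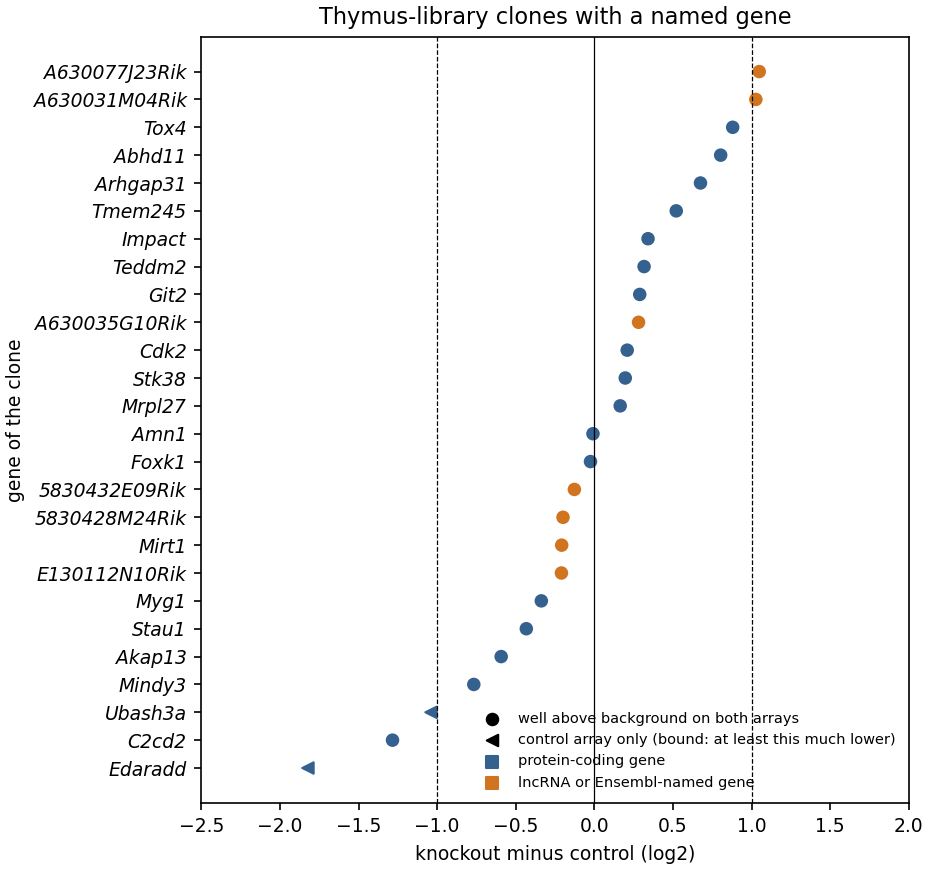
Each point is a thymus-code clone with a named gene, and the x axis gives knockout minus control (log2), with dashed lines at 2-fold. Circles were seen on both arrays, and left-pointing triangles are bounds of clones seen in the control only; C2cd2 lies lowest of the circles at -1.28, and A630077J23Rik highest at 1.05.

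The starts of the genes that stood apart and have an entry in the promoter table are printed so that the sequence behind each can be compared. RefSeq promoters of GRCm38.p6 run from 250 bases before to 50 bases after the gene's start, 5′ to 3′ on the gene's strand, and capitals mark the bases from the start on. Ubash3a lies at chr17:31207816-31208115 on the plus strand, Edaradd at chr13:12520401-12520700 and C2cd2 at chr16:97922584-97922883 on the minus strand, and A630077J23Rik at chr4:43751609-43751908 on the plus strand.
Ubash3a: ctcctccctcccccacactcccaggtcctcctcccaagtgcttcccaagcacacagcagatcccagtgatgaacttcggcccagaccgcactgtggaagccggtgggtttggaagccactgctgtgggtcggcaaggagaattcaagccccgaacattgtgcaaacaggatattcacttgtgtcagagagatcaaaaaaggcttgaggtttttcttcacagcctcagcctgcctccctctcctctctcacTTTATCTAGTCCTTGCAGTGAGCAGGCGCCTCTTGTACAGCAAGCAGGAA
Edaradd: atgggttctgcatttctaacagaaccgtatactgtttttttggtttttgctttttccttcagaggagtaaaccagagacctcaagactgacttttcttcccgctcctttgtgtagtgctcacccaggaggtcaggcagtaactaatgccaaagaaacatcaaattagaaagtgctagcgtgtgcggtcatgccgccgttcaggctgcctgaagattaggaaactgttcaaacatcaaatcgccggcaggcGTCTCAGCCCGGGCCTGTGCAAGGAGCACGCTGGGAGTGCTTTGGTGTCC
C2cd2: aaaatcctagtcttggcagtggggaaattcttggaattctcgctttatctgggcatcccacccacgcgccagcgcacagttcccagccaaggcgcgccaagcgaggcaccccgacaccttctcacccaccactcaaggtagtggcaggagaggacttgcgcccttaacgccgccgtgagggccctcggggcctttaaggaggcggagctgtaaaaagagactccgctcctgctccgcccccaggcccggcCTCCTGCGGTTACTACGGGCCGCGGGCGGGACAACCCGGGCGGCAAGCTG
A630077J23Rik: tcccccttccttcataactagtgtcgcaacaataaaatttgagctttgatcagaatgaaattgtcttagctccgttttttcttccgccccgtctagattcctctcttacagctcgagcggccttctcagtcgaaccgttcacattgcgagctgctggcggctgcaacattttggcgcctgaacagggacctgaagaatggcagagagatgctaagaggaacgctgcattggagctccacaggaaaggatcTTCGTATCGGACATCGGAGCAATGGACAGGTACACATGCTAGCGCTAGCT
The windows differ in base composition. C2cd2 has 64.3% G and C, Ubash3a 54.7%, A630077J23Rik 50% and Edaradd 49.3%, against a median of 52.7% over all 32851 promoters.

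Motifs were searched on both strands: the GC box GGGCGG, the core of RUNX sites TGTGGT, and the CCAAT box CCAAT. RUNX factors act in T-cell development. The C2cd2 window held 3 GC boxes, and A630077J23Rik held 1 GC box and 1 CCAAT box. The windows of Ubash3a and Edaradd held none of the 3 motifs as searched. TGTGGT lay in none of the 4 windows, and 16.8% of all promoters held it. Another form of the RUNX core, TGCGGT, was not part of the search. The printed windows of Edaradd and C2cd2 hold it, and that of Ubash3a holds its reverse complement, ACCGCA. The window of A630077J23Rik holds neither. How often all promoters hold this form was not counted. Of the 27 promoters of 23 genes matched to thymus-code clones, 14 (51.9%) held a GC box, 4 (14.8%) TGTGGT and 9 (33.3%) a CCAAT box. Over all promoters the shares were 35.7%, 16.8% and 37.4%.

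The lncRNA gene 5830403F22Rik on chromosome 7 overlaps Adam12, a membrane metalloprotease gene, and is named after a clone of code 5830. No RIKEN probe carried that clone, so it is not among the 640, and the gene was read by a probe for its RefSeq transcript. That probe had signals of 147 and 158 in the control and of 256 and 314 in the knockout. The spots of the arrays did not overlap, and the scaled difference was 1.34. Spots of an array are repeats on that array and do not show the spread between mice. Over all probes seen on both arrays, 4.45% stood 2-fold or more higher. The probe gives no value for Adam12 itself.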

How the data were processed

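Mammary gland RNA was read on 2 Agilent arrays, 1 per genotype. The deposited intensity values are background-subtracted processed signals, per the file headers, of Feature Extraction 11.5.1.1 (10.7 in the submitters' processing notes). The authors' deposited table holds log2 values equal to log2 of this signal minus 8.40 (control) or 7.95 (knockout) for 100% of probes to within 0.01, with column medians of -1.94 and -1.95.

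Here outlier-marked spots were left out, spots of the same probe were averaged as log2 signals, and each array's 75th percentile over 97373 probes usable on both arrays was subtracted (8.36 and 7.92). Calls are by size, at least 2-fold. The members and gene lists were chosen with earlier results of these data known. Named were the gene overlapping Adam12 (planned as a clone, read by a RefSeq transcript probe), the 10 brightest clones, the 8 largest differences and 5 largest bounds each way, protein-coding genes 2-fold apart and list members; other genes matched to clones were added after their values were seen. Precision is limited by the number of arrays. Alternatives covered scaling, background (normexp with offset 50 on median spot signals), filters, spots and limits. Tools were python 3.11.15, numpy 2.4.6, pandas 2.3.3, matplotlib 3.10.9 and limma 3.58.1 in R 4.3.3. The code for the calls was run on simulated data with noise of the size of the spread between spots. That run holds no variation between arrays or mice and cannot gauge how many calls are false.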

Additional observations from a re-analysis of the deposited data

How the results depend on the processing

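With 15 thymus-code clones at least 2-fold higher and 23 lower in the main setting, the higher count was 8 with a loess curve, 1 with the spike-ins set equal, 1 with normexp, 3 without background correction, 26 without the filter on dim probes (4.08%, other RIKEN clones 7.16%), 3 with both levels above the median, 71 at 1.5-fold (14.1%, others 13.8%) and 0 at 4-fold (others 0.452%). The lower count was 53 with the spike-ins set equal, 11 with normexp, 11 without background correction, 49 without the filter (7.69%, others 7.10%), 3 with both levels above the median, 64 at 1.5-fold (12.7%, others 12.7%) and 5 at 4-fold (0.994%, others 0.636%). The probe of 5830403F22Rik was at 0.99 with the spike-ins set equal and 1.01 with normexp, and the filter on levels above the median leaves it out. Counts of clones well above background on a single array rose on both sides when the first spot alone was read. The control side went from 27 to 35 and the knockout side from 6 to 11. No share of other probes is given for that setting. With any spot counted, 87.3% of clones were seen in the control and 83.5% in the knockout. The cause of these shifts was not tested. The gap to other RIKEN clones of like signal lay between -0.01 and 0.02 in the alternatives run. Dim clones near background have the least certain values. No paired analysis was possible because there was 1 array per genotype.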
